A study of Aspergillus nidulans with 9 samples.

Results

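In Vege of *Aspergillus nidulans*, 134 of the 10988 counted genes had much less mRNA in the libraries labelled Δ*veA* than WT had, while their level in the libraries labelled Δ*laeA* lay near that of WT. The genes were chosen by these measured values. The level of a gene was its counts per 1000000 reads on genes (CPM), averaged over the 3 libraries of a group. The ratio of a mutant to WT was taken as log2 after adding 0.5 CPM to both means. It was then centred by subtracting the median ratio of the 8905 genes with a mean of at least 1 CPM over all libraries, which was -0.23 for Δ*veA* and -0.31 for Δ*laeA*. A gene was chosen if its centred log2 ratio was at most -1.5 in Δ*veA* and within 0.5 of 0 in Δ*laeA*, and its WT mean was at least 5 CPM. Because all 9 libraries and both contrasts entered the choice, the levels and ratios of these genes are given as a description and no p-value of a single gene is given for them.

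RNA was sequenced from vegetatively growing cells, called Vege, after 24 h in shaken liquid glucose minimal medium (1% glucose) at 37 °C in the dark. WT, Δ*veA* and Δ*laeA* had 3 libraries each. In the study's strain list the Δ*veA* strain carries *argB* in place of *veA*, and the Δ*laeA* strain carries *methG* in place of *laeA* in a *methG1* strain with the *veA* allele. Each mutant is a single strain, and whether its libraries are separate cultures is not given in the sources used here, so spreads between libraries may be technical.

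VeA is a protein of the fungal velvet family that is imported into the nucleus together with VelB in darkness and meets the methyltransferase-like protein LaeA there, forming the velvet complex. In *A. nidulans* this complex couples sexual development and secondary metabolism to darkness, and loss of either VeA or LaeA changes the expression of many gene clusters. VeA also has partners other than LaeA, and the fungus is homothallic, so 1 strain carries the genes of both mating types and can form fruiting bodies alone.

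Reads counted on genes ranged from 13396869 to 35755046 per library. The targeted genes were looked at first. In WT, *laeA* had 39.2 to 43.4 CPM, and in the 3 libraries that bear the Δ*laeA* label it had 4.53, 6.06 and 5.11 CPM. The *veA* gene went against the label. It had 123 to 133 CPM in WT, and 779, 744 and 743 CPM where the label is Δ*veA*. Where within *veA* these reads lie cannot be seen from counts per gene. The marker *argB*, which the Δ*veA* strain carries, had a mean of 433 CPM in these libraries and 92.2 CPM in WT. The groups are therefore called by their labels throughout.

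The chosen genes were a small share of what was low in the libraries labelled Δ*veA*. Of 891 genes with at least 5 CPM in WT and a ratio of at most -1.5 in Δ*veA*, 724 lay below the window in Δ*laeA*, 33 lay above it and 134 (15.0%) lay inside. For scale, 56.3 to 56.6% of all genes with this WT level lay inside, read in 1 Δ*laeA* library at a time. This share was not taken on the group means. The median ratio of the 134 genes was -2.03 in Δ*veA* and -0.12 in Δ*laeA*, beside -0.01 and -0.01 for all 7719 genes with at least 5 CPM in WT. In Δ*veA* the ratio was -4 or lower for 9 genes, between -4 and -3 for 17, between -3 and -2 for 45 and above -2 for 63. Just inside the limit were AN10011 (-1.517), AN5446 (-1.511) and *lap1* (-1.503), and just outside it AN3680 (-1.497), AN2937 (-1.48) and AN12486 (-1.48). In Δ*laeA* the nearest genes to the limits were AN2547 (-0.487) inside and AN9156 (-0.501) outside at the lower end, with AN6095 (0.486) inside and AN7847 (0.559) outside at the upper end.

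**Figure D1:**
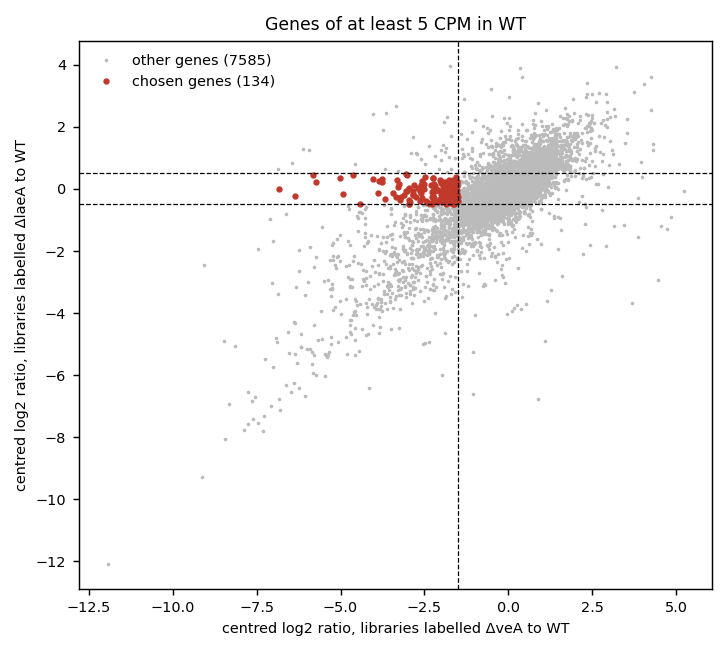
Centred log2 ratio to WT in the libraries labelled Δ*veA* (x axis) and Δ*laeA* (y axis) for the 7719 genes with at least 5 CPM in WT, 1 point per gene, with the limits of the choice as dashed lines. The 134 chosen genes (red) reach down to -6.84 on the x axis, and most of the other genes left of the limit lie below the window on the y axis.

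Together the 134 genes took 24450, 24022 and 24044 CPM in the WT libraries, 5097, 5084 and 5077 CPM in those labelled Δ*veA* and 19213, 18909 and 18899 CPM in those labelled Δ*laeA*. The libraries of a group lay close together, and the Δ*laeA* sums stood between the other groups but nearer to WT. In bulk RNA, fewer cells of a type and less RNA per cell cannot be told apart. Per gene, the Δ*veA* mean was 0 to 30.0% of the WT mean (median 18.3%) and the Δ*laeA* mean was 55.1 to 113% of it (median 73.7%). WT levels were spread widely, with 18 genes from 5 to 10 CPM, 45 from 10 to 50, 26 from 50 to 100, 31 from 100 to 500 and 14 of at least 500. The median coefficient of variation over 3 libraries was 4.26% in WT and 8.71% and 4.88% in Δ*veA* and Δ*laeA*, beside 5.27%, 6.17% and 5.04% for all genes with at least 5 CPM in WT. In WT this coefficient was smallest for AN7201 (0.561%) and largest for AN10861 (23.2%). Low counts in Δ*veA* touched few genes, since 8 of the 134 had under 10 counts in any Δ*veA* library. These 8 include AN7116, AN3519, AN3518, AN8963, AN3517 and AN2604, which are among the 12 genes with the lowest Δ*veA* ratio.

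All 134 genes passed the filter on low counts and were among the 9481 genes tested with edgeR's quasi-likelihood test, where DEG stands for a gene that changed by more than 2-fold with an adjusted p under 0.05. All 134 were DEGs with a lower level in Δ*veA* than in WT, against 19.9% of the genes tested. All 134 were also DEGs with a lower level in Δ*veA* than in Δ*laeA*, against 11.6% of the genes tested. In Δ*laeA* against WT, 0 of 134 were lower DEGs, where 14.5% of the genes tested were, and 0 were higher DEGs, where 9.9% were. DESeq2 also called 0 there, and at an unadjusted p under 0.05 in edgeR there were 84, against 75.1% of the genes tested. The rule used these contrasts, so nothing is read from these counts.

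The Δ*laeA* levels of the genes were spread over the window. On TMM-scaled CPM the Δ*laeA* and WT libraries overlapped for 40 of the 134 genes, against 24.7% of the genes tested. Every Δ*laeA* library lay below every WT library for 60 genes and above for 34, against 37.9% and 37.4%. The rule used these levels too, and nothing is read from the counts. This split depends on the scaling. With library totals alone, every Δ*laeA* library lay below every WT library for 106 genes and above for 4. The share over all genes was not taken at this scaling. There the median Δ*laeA* ratio of the 8905 genes used for centring was itself -0.31, so nothing is read from these counts either. The centred ratio in Δ*laeA* was below 0 for 84 genes and above 0 for 50, whereas without centring it was below 0 for 123 and below -0.5 for 53. Of the 134 genes, 29 lay within 0.1 of 0 and 70 within 0.25 in Δ*laeA*.

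Each library was also read for genes chosen without it. Such a reading is independent of the choice on 1 side only, since a left-out mutant library was set against the WT mean that chose the genes, and a left-out WT library against the mutant means that chose them. The shares over all genes are given beside the counts for scale. The genes were chosen again on the other libraries, which gave 129 to 136 genes with 125 to 133 of the 134 among them, and 109 of the 134 were chosen whichever library was left out. In a left-out Δ*veA* library, the ratio was again at most -1.5 for 119 of 129 genes, 122 of 134 and 122 of 135. For all genes with at least 5 CPM in WT, these shares were 11.6%, 11.7% and 11.5%. In a left-out Δ*laeA* library, 123 of 132 genes, 119 of 130 and 122 of 136 were within 0.5 of 0, where the shares over all such genes were 56.4%, 56.6% and 56.3%. With a left-out WT library as the reference, 124 of 136 genes, 123 of 132 and 124 of 131 were at most -1.5 in Δ*veA*, against 11.7%, 11.6% and 11.5%. For Δ*laeA* and the same WT libraries, 123, 121 and 128 genes were within 0.5 of 0, against 55.7%, 56.3% and 56.8%. The medians of the 12 readings lay between -2.13 and -2.04 for Δ*veA* and between -0.16 and -0.08 for Δ*laeA*. The Δ*veA* ratio of a gene in these readings went as high as -0.87, and the Δ*laeA* ratios went from -0.87 to 0.91, so single readings fell well outside the limits.

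**Figure D2:**
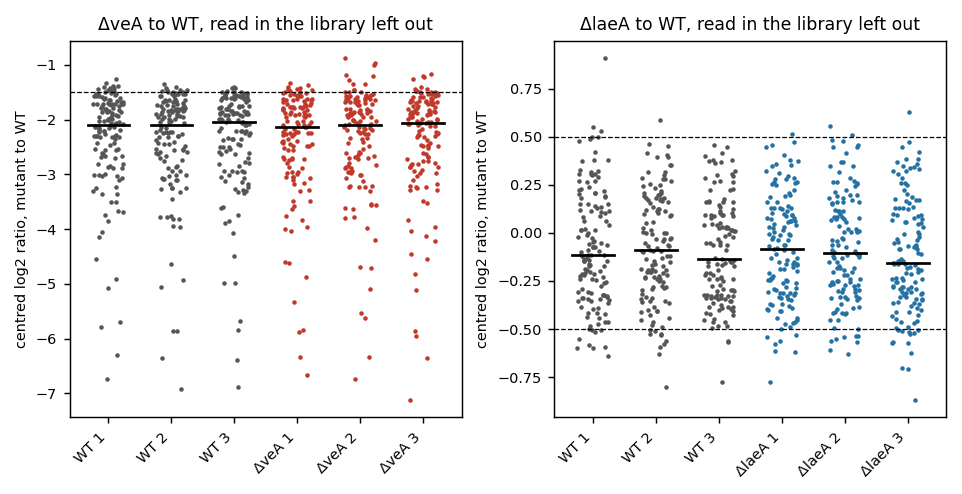
Centred log2 ratio to WT (y axis) of the genes chosen without the library named on the x axis, read in that library, with 1 point per gene, the median as a black bar and the limits as dashed lines. Δ*veA* ratios (left) have medians from -2.13 to -2.04, and Δ*laeA* ratios (right) have medians from -0.16 to -0.08.

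Among the 9 chosen genes with a RefSeq symbol, *ppgA* (AN5791) had the lowest ratio in Δ*veA*. It encodes the precursor of the peptide pheromone that the receptor PreB of the same fungus is thought to sense. It had 68.3, 64.1 and 67.4 CPM in WT, 4.57, 5.55 and 5.87 CPM in Δ*veA* and 56.7, 53.7 and 57.7 CPM in Δ*laeA*, with centred log2 ratios of -3.30 and 0.06. The Δ*veA* libraries lay far below the others, and the Δ*laeA* libraries lay below WT before centring. The gene *MAT2* (AN4734) encodes the HMG-box transcription factor of 1 of the mating types. It had 16.2, 17.9 and 16.8 CPM in WT, 1.30, 1.58 and 1.83 CPM in Δ*veA* and 13.5, 10.9 and 12.2 CPM in Δ*laeA*, with ratios of -2.85 and -0.15. Before centring all 3 groups stood apart, with the Δ*laeA* libraries below WT and the Δ*veA* libraries far below both.

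Of the 9 other annotated mating genes looked at, 5 were lower DEGs in Δ*veA* and 2 in Δ*laeA*, where the shares over the genes tested were 19.9% and 14.5%. These genes and the other annotated non-members named below were put beside the chosen genes after their values were seen. The receptor gene *preA* had means of 26.4, 2.43 and 8.49 CPM in WT, Δ*veA* and Δ*laeA*. Its edgeR log2 fold changes were -3.12 in Δ*veA* (adjusted p = 7.22e-20) and -1.32 in Δ*laeA* (adjusted p = 1.43e-11). *MAT1*, the α-box factor of the other mating type, had 2.68, 0.0897 and 0.929 CPM, which put it under the WT minimum, with edgeR log2 fold changes of -4.75 and -1.21. The receptor gene *preB* had edgeR log2 fold changes of -1.31 and -0.93, the MAP kinase gene *mpkB* of -1.27 and -0.90 and the transcription factor gene *steA* of -1.04 and -0.84, so these 3 were DEGs in Δ*veA* and missed the 2-fold minimum in Δ*laeA*. The kinase gene *ste7* and the G protein genes *gpaA*, *sfaD* and *gpgA* were DEGs in neither mutant. Of the 12 sexual development genes named in the RefSeq table, all tested, 8 were lower DEGs and 1 a higher DEG in Δ*veA*, against 19.9% and 13.6% of the genes tested, and 3 were lower DEGs in Δ*laeA*, against 14.5%. Without *ppgA* and *MAT2* the counts were 6 and 1 in Δ*veA* and 3 in Δ*laeA*, of 10 genes. The 2 sets overlap. The 6 lower DEGs in Δ*veA* were *preA*, *MAT1*, *preB*, *mpkB* and *steA*, all counted above, and *esdC*. The only marker of sexual structures named in that table, the early sexual development gene *esdC*, was low in both mutants, unlike *ppgA* and *MAT2*. It had 2119 to 2169 CPM in WT, against 64.9 to 71.9 CPM in Δ*veA* and 304 to 326 CPM in Δ*laeA*. The part of such structures in the levels of *ppgA* and *MAT2* was not tested.

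The regulator of conidium maturation *wetA* (AN1937) was the 1 gene of the 134 that stood in the list of 19 conidiation genes named in the RefSeq table. It had 5.45, 6.71 and 7.80 CPM in WT, 0.761, 0.909 and 0.592 CPM in Δ*veA* and 3.85, 6.02 and 4.72 CPM in Δ*laeA*, with ratios of -2.29 and -0.11. The Δ*laeA* and WT libraries overlapped, and the Δ*veA* values rest on 12 to 27 counts per library. Of these 19 genes, 11 were lower DEGs in Δ*veA*, against 19.9% of the genes tested. In Δ*laeA* 8 were lower DEGs and 1 a higher DEG, against 14.5% and 9.9%. Without *wetA*, whose place the rule set, 10 of 18 genes were lower DEGs in Δ*veA*. In Δ*laeA* 8 of these 18 were lower DEGs and 1 a higher DEG. The activator *brlA*, which stands at the head of the *brlA*, *abaA* and *wetA* pathway, had means of 19.0, 1.504 and 1.06 CPM in WT, Δ*veA* and Δ*laeA*, and *abaA* had 2.42, 1.06 and 0.894 CPM. The rule itself placed *wetA* near WT in Δ*laeA*, so nothing is read from its contrast with *brlA* and *abaA* there. The Δ*laeA* level of *abaA* rests on 12 to 29 counts per library. Summed over 9 conidiophore and conidium markers, *wetA* included, the level was 106 to 110 CPM in WT. It was 23.9 to 25.7 CPM in Δ*veA* and 36.8 to 39.0 CPM in Δ*laeA*. Of these 9, 7 were lower DEGs in Δ*veA* and 5 in Δ*laeA*, beside the same shares of 19.9% and 14.5%. Without *wetA* the counts were 6 and 5, of 8 genes. None of the 9 markers had a group mean of 0, and the part of such cells in the level of *wetA* was not tested.

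The gene *gtb3* (AN2955) carries the name of a glycosyltransferase of the galactosaminogalactan cluster of *Aspergillus fumigatus*, whose product is an adhesive polysaccharide of the hyphal surface. It had 519, 500 and 496 CPM in WT, 50.9, 45.9 and 43.8 CPM in Δ*veA* and 331, 335 and 367 CPM in Δ*laeA*, with ratios of -3.19 and -0.25. The next gene in the RefSeq order is *agd3* (AN2954), named after the *A. fumigatus* enzyme that deacetylates the same polysaccharide. It was not among the 134, because its Δ*laeA* ratio of -0.58 lay just outside the window. The *agd3* gene had 1731, 1480 and 1517 CPM in WT, 77.0, 69.6 and 68.0 CPM in Δ*veA* and 846, 852 and 856 CPM in Δ*laeA*, with a Δ*veA* ratio of -4.23. AN2953 and AN2951, both chosen, follow it with AN2952 between them. AN2953 had 765, 759 and 779 CPM in WT, 218, 219 and 217 CPM in Δ*veA* and 442, 461 and 451 CPM in Δ*laeA*. AN2951 had 648, 666 and 651 CPM in WT, 56.0, 63.0 and 59.1 CPM in Δ*veA* and 419, 395 and 423 CPM in Δ*laeA*. This stretch was marked out after the values were seen, as chosen genes with at most 5 genes between them. All 5 of its genes were at most -1.5 in Δ*veA*. Of these, 3 met that limit as chosen genes, and 2, *agd3* and AN2952, were not chosen. All 5 were below 0 in Δ*laeA*, from -0.25 for *gtb3* to -0.95 for AN2952.

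Neighbouring genes of another kind were *glpV* (AN1015) and *gpaB* (AN1016). The symbol *glpV* is that of a glycogen phosphorylase of *Dictyostelium*, an enzyme that releases glucose 1-phosphate from stored glycogen. The gene had 1100, 1092 and 1107 CPM in WT, 239, 228 and 238 CPM in Δ*veA* and 717, 721 and 729 CPM in Δ*laeA*, with ratios of -1.997 and -0.30. The 3 groups did not overlap, and the Δ*laeA* mean was 65.7% of the WT mean. The sugar phosphate genes *pgmA* and *ugp1*, which act between glycogen and glycolysis, and *glcA* were DEGs in neither mutant. The gene *gpaB* encodes a G protein α subunit that in *A. fumigatus* acts on cAMP signalling. It had 102, 102 and 104 CPM in WT, 31.6, 29.2 and 29.5 CPM in Δ*veA* and 65.7, 65.5 and 66.9 CPM in Δ*laeA*, with ratios of -1.52 and -0.32. Among 11 other annotated genes of G protein and cAMP signalling, the receptor genes *gprC* and *gprD* were higher DEGs in both mutants, and the other 9 were DEGs in neither. Of the genes tested, 13.6% were higher DEGs in Δ*veA* and 9.9% in Δ*laeA*, and 19.9% and 14.5% were lower DEGs. The α subunit gene *gpaA* had ratios of 0.13 in Δ*veA* and -0.77 in Δ*laeA*, and the protein kinase A gene *pkaC* had -0.70 and -0.09.

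The remaining annotated genes were *pmeA*, *abp2* and *lap1*. The gene *pmeA* (AN3390) encodes a pectin methylesterase, which removes methyl groups from plant pectin. It had 75.02, 71.8 and 70.6 CPM in WT, 11.3, 12.4 and 14.4 CPM in Δ*veA* and 65.3, 63.1 and 57.3 CPM in Δ*laeA*, with ratios of -2.24 and 0.08, and its Δ*laeA* libraries lay below WT before centring. Of 5 other pectin genes, *pgxB* alone was a lower DEG, in both mutants, at a WT mean of 1.23 CPM. The gene *lap1* (AN7035) encodes a leucine aminopeptidase. It had 225, 248 and 232 CPM in WT, 67.3, 72.3 and 72.0 CPM in Δ*veA* and 152, 138 and 144 CPM in Δ*laeA*, and its Δ*laeA* ratio was -0.39. Of 6 other peptidase genes, 4 were lower DEGs in Δ*veA* and 2 in Δ*laeA*, against 19.9% and 14.5% of the genes tested. One of these is the dipeptidyl peptidase gene *dppV*, which lay just above the Δ*laeA* window at 0.56. The *dppV* gene had 206, 173 and 173 CPM in WT, 15.8, 15.8 and 15.1 CPM in Δ*veA* and 222, 215 and 222 CPM in Δ*laeA*. The gene *abp2* (AN0340) has a symbol used in *Schizosaccharomyces pombe* for a protein that binds replication origins. It had 110 to 115 CPM in WT, against 31.7 to 34.1 CPM in Δ*veA* and 85.4 to 95.4 CPM in Δ*laeA*. Its 3 groups did not overlap before centring, but the centred ratios were -1.54 and -0.02, so Δ*laeA* lay near WT. Of the 9 genes with a symbol, 4 would leave the Δ*laeA* window without centring, with ratios of -0.55 for *gtb3*, -0.61 for *glpV*, -0.63 for *gpaB* and -0.70 for *lap1*.

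**Figure D3:**
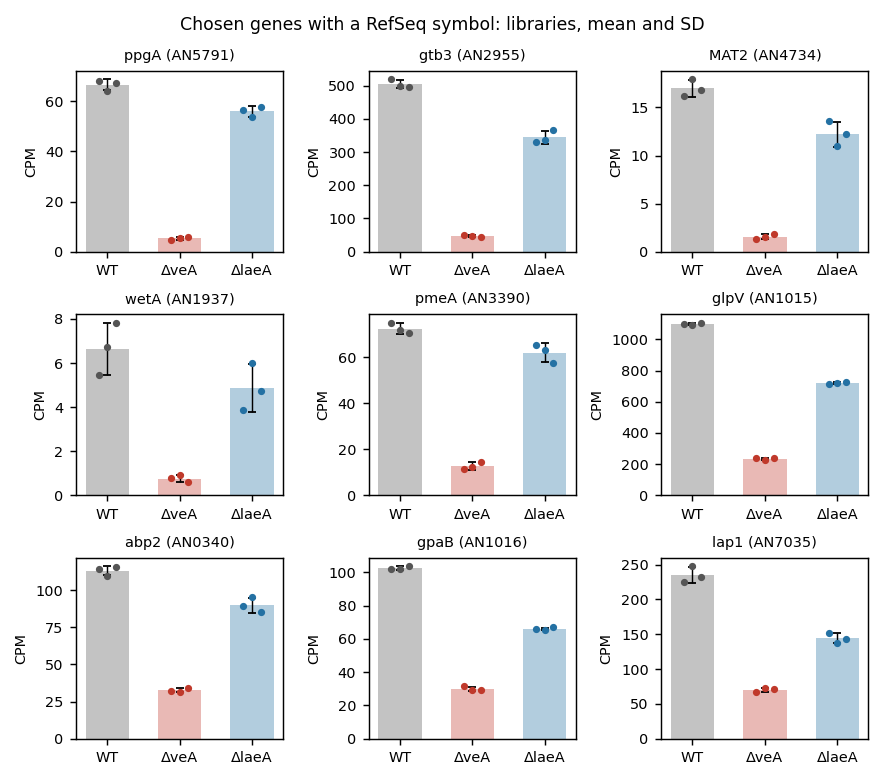
CPM (y axis, from 0) of the 9 chosen genes that have a RefSeq symbol, with a point per library, bars for the mean and error bars for the SD of 3 libraries of WT and of each labelled mutant. In every panel the Δ*veA* points lie below all others, at 8.003 to 30.0% of the WT mean, and the Δ*laeA* means lie at 61.5 to 85.4%.

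Most of the 134 genes had no symbol, and those with the lowest ratios are known by their identifiers only. AN9377 had 163, 187 and 183 CPM in WT, 0.986, 0.909 and 0.592 CPM in Δ*veA* and 147, 143 and 138 CPM in Δ*laeA*, with ratios of -6.84 and -0.01. Its Δ*veA* mean was 0.467% of the WT mean, while its Δ*laeA* mean was 80.5%. AN7116 had 45.1, 47.5 and 48.3 CPM in WT, 0 counts in all 3 Δ*veA* libraries and 34.3, 31.2 and 32.1 CPM in Δ*laeA*. The limit that a count of 0 allows, 3 counts per library, is a mean of 0.125 CPM over the Δ*veA* libraries, so its level there was at least 375-fold lower than in WT. This limit covers counting error only. AN8963 had 24.0, 24.0 and 22.7 CPM in WT, 0.197, 0.0957 and 0.0987 CPM in Δ*veA* and 25.3, 21.7 and 25.7 CPM in Δ*laeA*, so that WT and Δ*laeA* overlapped and Δ*veA* rested on 2 to 7 counts per library. AN7822 had 45.8 to 48.6 CPM in WT, against 0.507 to 1.05 CPM in Δ*veA* and 33.3 to 35.4 CPM in Δ*laeA*. AN9315 had 47.0 to 54.7 CPM in WT, against 1.15 to 1.38 CPM in Δ*veA* and 55.7 to 56.8 CPM in Δ*laeA*, and its Δ*laeA* libraries all lay above WT before centring. AN11477 was near the other edge of the window, with 77.8 to 84.2 CPM in WT, against 2.34 to 3.21 CPM in Δ*veA* and 43.9 to 49.5 CPM in Δ*laeA*. AN3667, AN7200 and AN2604 had ratios of -3.90, -3.85 and -3.76 in Δ*veA* and of -0.13, 0.27 and 0.23 in Δ*laeA*.

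The added 0.5 CPM sets how low these ratios can go. With 0.1 CPM in its place, the ratio of AN7116 was -8.65 and with 1 CPM it was -5.37, in place of -6.34. The ratio moved by more than 1.5-fold for AN3519, AN3518, AN8963, AN3517 and AN2604 too. None of these alternatives brought any of the 12 genes near the limit of -1.5, since the highest ratio among them was -3.14, for AN2604.

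**Figure D4:**
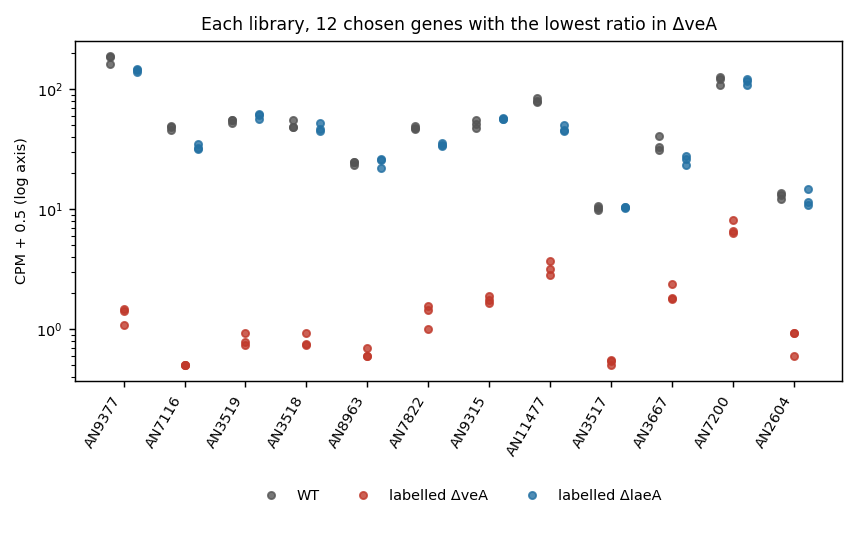
CPM + 0.5 (y axis, log scale) in each of the 9 libraries for the 12 chosen genes with the lowest ratio in Δ*veA*, ordered by that ratio. For each gene the 3 points of the libraries labelled Δ*veA* (red) lie far below those of WT (grey) and Δ*laeA* (blue), and AN7116 lies at 0.5 because its count was 0.

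At the other end of the range were genes with many reads and a smaller fall. AN1160 took the most reads of the 134, with 5204, 4912 and 4899 CPM in WT, 1260, 1278 and 1193 CPM in Δ*veA* and 5134, 4830 and 4863 CPM in Δ*laeA*. Its Δ*laeA* mean was 98.7% of the WT mean and the libraries overlapped, whereas the centred ratio of 0.29 put it above WT. AN1812 had 1494, 1548 and 1555 CPM in WT, 343, 358 and 361 CPM in Δ*veA* and 973, 975 and 967 CPM in Δ*laeA*. AN8010 had 690 to 741 CPM in WT, against 204 to 216 CPM in Δ*veA* and 512 to 515 CPM in Δ*laeA*. For both genes all 3 groups stood apart, with Δ*laeA* between the others. AN11140, which RefSeq lists as a pseudogene, had 587 to 625 CPM in WT, against 74.6 to 78.5 CPM in Δ*veA* and 404 to 417 CPM in Δ*laeA*.

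Of the 134 genes, 129 could be placed in the RefSeq gene order, and 25 of these stood in 11 runs of genes next to each other, 3 runs of 3 genes and 8 of 2. The gene model of 0 of them overlaps another. The 226 genes that stand next to a chosen gene without being chosen included 132 with at least 5 CPM in WT. Of these neighbours 27 (20.5%) had a ratio of at most -1.5 in Δ*veA*. The share was 9.93% of all 7203 genes in the order that had this WT level and were not chosen, the neighbours included. The neighbours had a median ratio of -0.25 in Δ*veA* and -0.06 in Δ*laeA*, beside 0.01 and -0.01 for those 7203 genes. These values were not tested.

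The run with the lowest ratios was AN3517 to AN3519. AN3519 had 51.6, 55.0 and 54.5 CPM in WT, 0.282, 0.431 and 0.247 CPM in Δ*veA* and 62.0, 60.2 and 55.8 CPM in Δ*laeA*. AN3518 had 48.2, 54.4 and 48.2 CPM in WT, 0.254, 0.431 and 0.247 CPM in Δ*veA* and 44.2, 45.7 and 51.5 CPM in Δ*laeA*. The Δ*veA* levels rest on 5 to 10 counts per library for AN3519 and 5 to 9 for AN3518. AN3517 had 9.70, 9.26 and 10.03 CPM in WT, 9.74, 9.90 and 9.88 CPM in Δ*laeA* and 2, 1 and 0 counts in the Δ*veA* libraries. For all 3 genes the Δ*veA* mean was under 1% of the WT mean, and each had a Δ*laeA* mean of 93.8 to 111% of it. The run is part of a longer stretch up to AN3528, which was marked out after the values were seen as chosen genes with at most 5 genes between them. It holds 15 genes, of which 11 were counted under these identifiers and 6 were chosen (AN3528, AN3525 and AN3522 beside the run). Of the 11, 9 had a ratio of at most -1.5 in Δ*veA*. The 3 of these that were not chosen left the Δ*laeA* window in different directions. AN3524 had 124, 121 and 122 CPM in WT, 5.61, 5.41 and 6.66 CPM in Δ*veA* and 519, 524 and 550 CPM in Δ*laeA*, with ratios of -4.04 and 2.42. AN3520 had 63.7, 67.3 and 67.9 CPM in WT, 0, 0.335 and 0.148 CPM in Δ*veA* and 98.3, 103 and 87.7 CPM in Δ*laeA*, with ratios of -6.43 and 0.84. AN9513 had 28.8 to 30.7 CPM in WT, against 0.197 to 0.622 CPM in Δ*veA* and 14.6 to 17.6 CPM in Δ*laeA*, with ratios of -4.77 and -0.56. The other 2 counted genes, AN3523 and AN3521, were under 1 CPM in WT. In the libraries labelled Δ*veA* the stretch was low in all its genes above that level, while in Δ*laeA* its genes lay on both sides of WT.

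**Figure D5:**
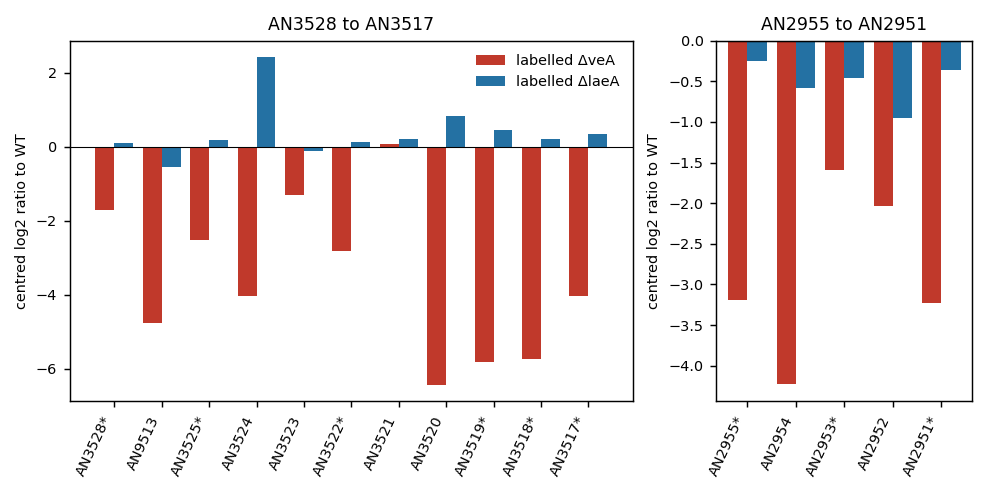
Centred log2 ratio to WT (y axis) of the counted genes, in RefSeq order along the x axis, from AN3528 to AN3517 (left) and from AN2955 (*gtb3*) to AN2951 (right) in the libraries labelled Δ*veA* (red bars) and Δ*laeA* (blue bars), with chosen genes marked by an asterisk. In Δ*veA* 9 of 11 and 5 of 5 genes are at most -1.5, of which 6 and 3 are chosen genes that the rule put there. In Δ*laeA* AN3524 stands out at 2.42.

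The other runs were milder. AN11149, AN11143 and AN8903 had Δ*veA* ratios of -2.59, -2.96 and -2.47, with 0.14, 0.03 and 0.37 for Δ*laeA*. AN8903 had 585, 555 and 564 CPM in WT, 91.7, 82.0 and 87.1 CPM in Δ*veA* and 597, 589 and 596 CPM in Δ*laeA*, all above WT. AN10998, AN10979 and AN7656 had ratios of -1.64, -1.55 and -2.10 in Δ*veA* and lay within 0.1 of 0 in Δ*laeA*. In runs of 2, AN7201 and AN7200 had ratios of -3.27 and -3.85, AN8727 and AN8726 of -3.10 and -2.57, and AN5847 and AN5846 of -2.31 and -2.02 in Δ*veA*. AN5847 had a mean of 521 CPM in WT and 460 CPM in Δ*laeA*, and AN5846 had 538 and 522 CPM. In each of these runs the Δ*veA* libraries lay below every WT and Δ*laeA* library, as they did for all 134 genes on TMM-scaled CPM. The rule all but sets this order, and no share over all genes was taken, so nothing is read from it.

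The lists of genes for light sensing, nitrogen use, carbon use, the cell wall, secondary metabolism, antioxidants, siderophores and iron, hydrophobins, plant polymer enzymes, proteases and the velvet proteins held 0 of the 134 genes among their 50 RefSeq-named members. Of all counted genes, 134 of 10988 were chosen. The secondary metabolism list named only 2 genes, *tpcC* and *nscA*, and the hydrophobin list 2. The plant polymer list named 4 genes and the protease list 1. They leave out *pmeA* and *lap1*, chosen genes for a pectin methylesterase and an aminopeptidase. The lists cover a small part of the genome and 125 of the 134 genes have no symbol, so the count says little about what the genes encode.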

How the data were processed

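Read counts per gene from 9 RNA-seq libraries of Vege were used, 3 each of WT, Δ*veA* and Δ*laeA*, grouped by the labelled genotype. The authors mapped clean reads of strand-specific libraries with Hisat2 2.1 and deposited whole-number counts from FeatureCounts 1.5.0, without normalization. DESeq2 1.6.3 is also listed in the submitters' processing notes. The strand setting of the counting was not given in the sources used here, so reads from overlapping genes on opposite strands could not be told apart. Each single-library file, 9 in all, was checked against its column in the joint table and was identical. Counts per library, from 13396869 to 35755046, set the precision of low levels.

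CPM used the total of all rows of a library. The members were selected by the rule that opens the report. The members and all gene lists were chosen with earlier results of these data known. DEGs came from the quasi-likelihood test of edgeR 4.0.16 (R 4.3.3) with TMM factors, filterByExpr and 1 model fitted to all 9 libraries. The p-values of 9481 genes were adjusted by Benjamini and Hochberg's method, and DEGs changed by more than 2-fold at an adjusted p under 0.05. The procedure was checked on simulated data. Members named are the 12 with the lowest Δ*veA* ratio, the 8 with the most reads in WT, those with a RefSeq symbol or in a gene list, those in the first 6 runs of neighbours, those at the limits and those with the extreme WT coefficients of variation. Others named in the text were chosen after their values were seen. Symbols and gene order are those of RefSeq's annotation of ASM1142v1. The study cites another record, so coordinates were left out. The annotation holds 129 of the 134 members, 9 of them with a symbol. Alternatives were DESeq2 1.42.0, other scalings, filters, pseudocounts and limits, a replicate block and each library left out. Further steps used Python 3.11.15 with pandas 2.3.3, numpy 2.4.6 and matplotlib 3.10.9.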

Additional observations from a re-analysis of the deposited data

How the results depend on the processing

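The number of genes chosen depends on the limits set. It was 71 with a limit of -2 in Δ*veA* and 269 with -1, and 70 with a window of 0.25 in Δ*laeA* and 258 with 1. It was 114 without centring, of which 81 were among the 134, and 125 with TMM factors, of which 124 were. Other pseudocounts, WT minimums and the median in place of the mean gave 99 to 155 genes, and leaving out 1 library gave 129 to 136. Of 602 recomputed ratios of named genes in each mutant, 0 changed sign among those past the limit in Δ*veA*, while 55 in Δ*veA* and 42 in Δ*laeA* moved by more than the spread between libraries.

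With an adjusted p under 0.05 alone, DEGs numbered 7601 in Δ*veA*, 6960 in Δ*laeA* and 6645 between the mutants, in place of 3181, 2312 and 1740. Leaving out 1 library gave 3184 to 3249, 2311 to 2366 and 1723 to 1772. Same-numbered libraries did not deviate together (correlations from -0.04 to 0.10), so the numbers were not taken as pairs, and with the replicate number as a block DEGs numbered 3171, 2306 and 1726. Genes with under 10 counts in a Δ*veA* library have ratios limited by depth.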
